A study of Mus musculus with 6 samples.

Results

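The glycosyltransferases that build mucin-type sugar chains were examined on 6 Affymetrix arrays of mouse colonic crypts, the epithelial glands of the colon. Members were chosen by gene symbol: those that begin with Galnt, B3gnt, B3galt, B4galt, Gcnt, Fut and a digit, St3gal, St6gal or St8sia, together with C1galt1 and C1galt1c1, on probe sets annotated to that symbol alone. This gave 59 genes on 101 probe sets, out of 12393 genes with such a probe set. The prefixes also take in enzymes of N-linked chains, glycolipids and proteoglycans. Only some of those are named as such below, so a class count is not one of mucin enzymes alone. Galnt12, B3gnt6 and B3gnt7 had no probe set of their own and were not analysed here.

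All mice were male and heterozygous for Lgr5-lacZ, with a lacZ reporter in Lgr5, which encodes a stem cell receptor, and each array held RNA pooled from 2 mice. Tumor crypts came from 12 adenomas per array, taken 90 days after injection of azoxymethane (AOM), a colon carcinogen, at 12.5 mg/kg; 5 days after AOM came 5 days of 2% dextran sulfate sodium (DSS) and 14 days of water, a cycle repeated at 1.5% and at 1.0% DSS. DSS crypts came from distal colons on day 2 of 1% DSS, an agent that injures the epithelium, and control crypts from distal colons of untreated mice. DSS and control mice were 6 to 8 weeks old, the age at which the tumor mice received AOM, so tumor mice were older at collection. Age, AOM, past DSS and adenoma cannot be told apart. There were 2 arrays a group, described as independent biological replicates, and this number limits the precision.

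Mucins are the glycoproteins of intestinal mucus, and most of their mass is sugar. An enzyme of the Galnt family attaches the first sugar, N-acetylgalactosamine, to a serine or threonine in the Golgi; C1galt1 adds galactose to make core 1, Gcnt enzymes add branches, and B3gnt, B3galt and B4galt enzymes extend the chain. Fut enzymes add fucose and the St families end the chain with sialic acid, using nucleotide sugars that transporters carry into the Golgi. Sialic acid gives mucus its charge and shields the chain from bacterial enzymes, and shortened or oddly capped chains are a known trait of colorectal tumors.

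Values are MAS5 intensities on a linear scale. Changes are differences of log2(intensity + 17.8) with their standard error (SE), tested with limma across 7456 genes and called at a Benjamini-Hochberg adjusted p under 0.05; a gene was tested on its brightest probe set when this lay above the array median on at least 2 arrays. Adding 17.8 understates the change of dim genes, and no probe set's level is set against another's. Of the 59 members, 31 passed this filter, 24 of them above the median on all 6 arrays. The 28 others reached at most 121 on any array, where array medians lay between 94.2 and 131. Because B4galt4, St6galnac1 and St8sia5 had no tumor array above the median, and St8sia5 no control array, their passing was tied to the groups where they were brighter. With these 3 left out, 9 of 28 members were called lower against control crypts and 11 of 28 against DSS crypts. St8sia5 is the one that drops from the second count. Over all 7456 genes, where none was left out in this way, 9.74% and 11.3% were called lower.

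Tumor crypts had 9 members called lower and 2 called higher than control crypts among the 31 tested, where the background over all 7456 genes was 9.74% lower and 12.8% higher. Against DSS crypts, tumor crypts had 12 called lower and 3 higher, with a background of 11.3% lower and 14.8% higher. The lower calls lay mainly at the chain end: of 9 sialyltransferases tested, out of 18 members, 6 were called lower against control crypts and 7 against DSS crypts, and none higher; 1 of those 7 is St8sia5, whose passing rested on the DSS arrays alone. The median log2 change of the 31 members was -0.32 against control crypts and -0.48 against DSS crypts, beside medians over all tested genes of 0.05 and 0.04. With B4galt4, St6galnac1 and St8sia5 left out, the medians of the 28 others tested were -0.28 and -0.29. Over all 59 members without the filter the medians were -0.19 and -0.18. Between DSS and control crypts no member was called, where the background was 0%. The 2 tumor comparisons share the tumor arrays, so their values stand side by side and are not independent.

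These counts depend on single arrays and on the scaling. Against control crypts the lower calls were 5 without control replicate 1, where 6.82% of all genes were called lower. The higher calls were 1 without control replicate 1, control replicate 2 or tumor replicate 2, where 10.1%, 6.84% and 4.23% of all genes were called higher. Against DSS crypts the lower calls were 6 when DSS replicate 1 was left out and 7 when DSS replicate 2 or tumor replicate 2 was, with 4.91%, 5.97% and 7.28% of all genes lower. The higher calls there were 1 without DSS replicate 1 or tumor replicate 2, with 7.30% and 6.05% of all genes higher. The median change of the members against DSS crypts was -0.23 without DSS replicate 1. Of all calls in tumor minus control, 56.8% were higher and 43.2% lower; centring each array on its median moved the median change of all genes by -0.25 and gave 34.7% higher and 65.3% lower, with 14 members and 16.5% of all genes lower, 2 members and 8.73% of all genes higher, and a median change of the members of -0.56. B3gnt2, B4galt6, Galnt7, St3gal4, St3gal6 and St6gal1 were called in both tumor comparisons under each of 18 alternatives.

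**Figure D1:**
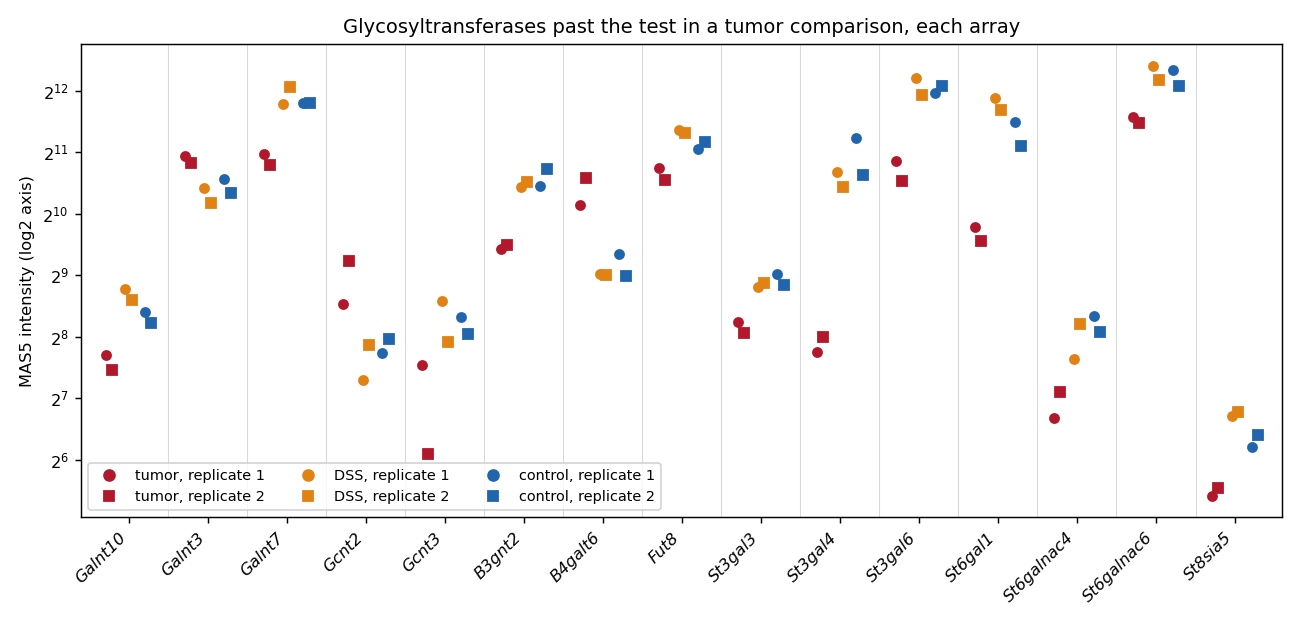
MAS5 intensity (log2 axis) of the 15 glycosyltransferases called in tumor minus control or tumor minus DSS, with 1 point per array; tumor is red, DSS orange and control blue, circles are replicate 1 and squares replicate 2. In St3gal4 the tumor points lie at 216 and 256, far below the DSS and control points at 1379 to 2406, while B4galt6 and Gcnt2 have their tumor points on top.

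**Figure D2:**
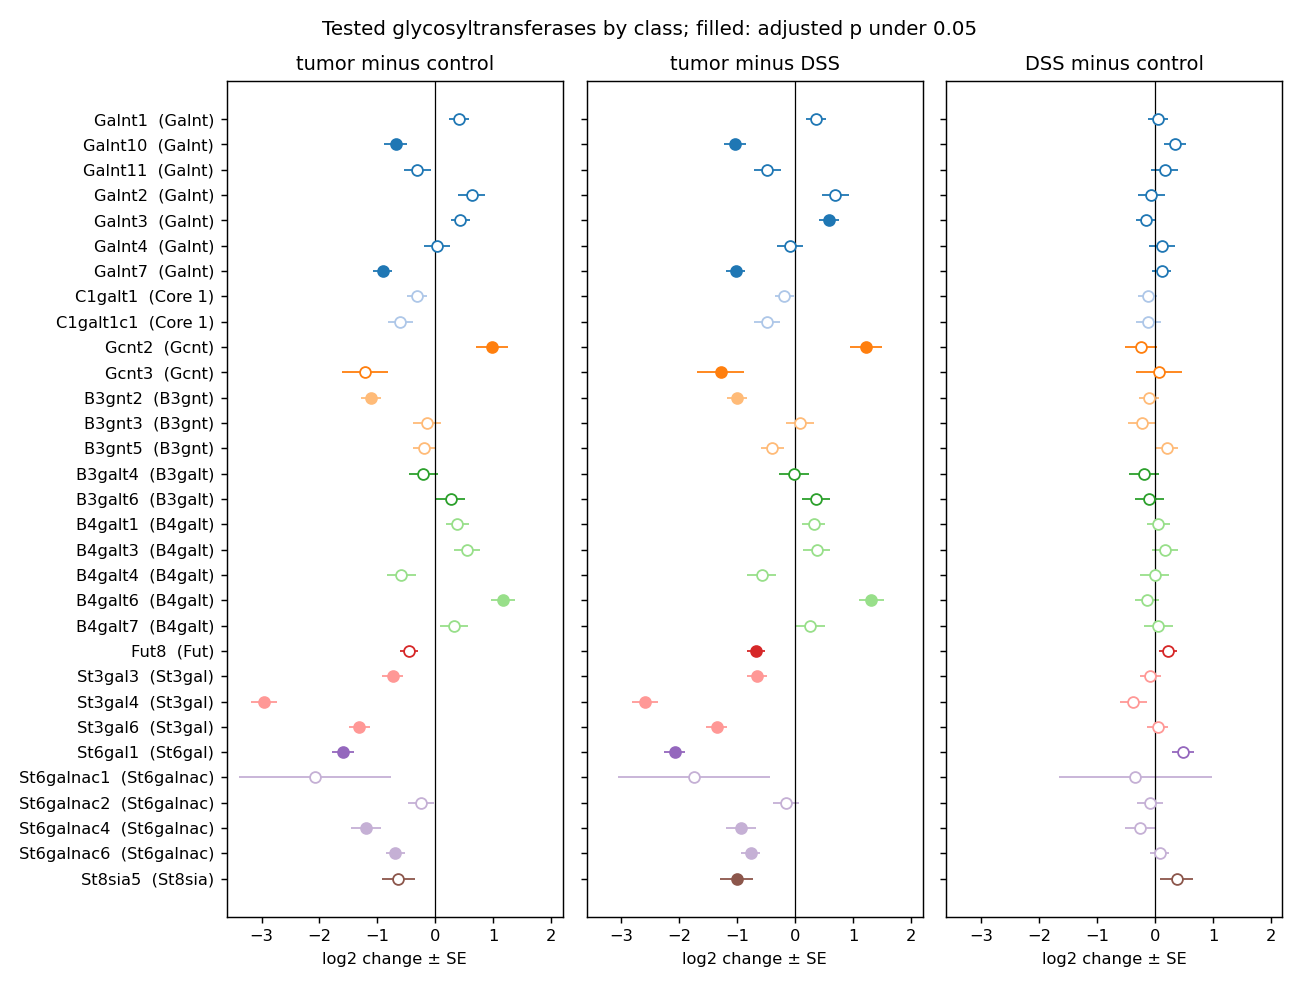
Log2 change ± SE of the 31 tested glycosyltransferases, ordered by class, in tumor minus control (left), tumor minus DSS (middle) and DSS minus control (right); colors mark the class and filled points have an adjusted p under 0.05. The sialyltransferases in the lower rows lie left of 0 in both tumor panels, and no point is filled in the right panel.

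The enzymes that start the chain did not move as 1 group. Of 10 Galnt genes 7 were tested, and 2 were called lower in tumor than in control crypts and none higher. Galnt7, which prefers peptides that already carry a sugar, had intensities of 2019.8 and 1781 in tumor crypts, 3517 and 4296 in DSS crypts and 3569 and 3586 in control crypts. Both tumor arrays lay below all the others, with a log2 change of -0.91 ± 0.16 against control crypts (adjusted p = 0.00638) and -1.03 ± 0.16 against DSS crypts (adjusted p = 0.00329). Its 3 probe sets gave changes of -0.91 to -0.63 against control crypts. Galnt10, another enzyme that prefers glycosylated peptides, had 209 and 175 in tumor crypts, 438 and 385 in DSS crypts and 340.1 and 299 in control crypts. It fell by 0.69 ± 0.19 against control crypts (adjusted p = 0.0364), a call lost in 9 of 17 alternatives (every array but tumor replicate 1, when left out, ended it), and by 1.04 ± 0.19 against DSS crypts (adjusted p = 0.00656), a call lost without DSS replicate 1 (adjusted p = 0.0618).

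No other Galnt gene was called against control crypts. Galnt3, which modifies naked peptides and is known for stabilising the bone hormone Fgf23, had 1972 and 1819 in tumor crypts, 1371 and 1150.5 in DSS crypts and 1507 and 1296 in control crypts. The tumor arrays were the highest for this gene; the change was 0.59 ± 0.17 against DSS crypts (adjusted p = 0.0378), a call lost in 6 of 18 alternatives (median centring, where it was 0.35 with an adjusted p of 0.301, no intensity trend, and leaving out any DSS or tumor array), and 0.43 ± 0.17 against control crypts (adjusted p = 0.107), which was no call. Galnt2, also an enzyme of naked peptides, had 296 and 457 in tumor, 209 and 234 in DSS and 239 and 226 in control crypts, and its change of 0.63 ± 0.23 against control crypts missed the threshold (adjusted p = 0.0922). All 3 of its probe sets lay above 0, from 0.58 to 0.94. Galnt1, Galnt4 and Galnt11 had log2 differences of 0.41, 0.04 and -0.32 against control crypts, with no call. Galnt6, Galnt16 and Galntl5 stayed below the filter, with no array of any group above 99.1.

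The windows of 300 bases around the annotated starts, 250 before and 50 after, are shown for 1 called member of each step, since these genes differ between groups at the level of messenger RNA. The sequences are those of RefSeq on GRCm38.p6, and 42 of the 59 members had a window there. Capitals mark every match, on either strand, to 4 searched motifs: the GC box GGGCGG bound by Sp factors, the TCF/LEF core CTTTGAT of Wnt signaling, the CDX-type motif TTTATNG, and the HNF1-type motif GTTAAT; no matches overlapped in these 4 windows. The Galnt7 window lies at chr8:57653006-57653305 on the minus strand, that of B3gnt2 at chr11:22859686-22859985 on the minus strand, that of St3gal4 at chr9:35116815-35117114 on the minus strand, and the first of 3 Gcnt2 windows at chr13:40859518-40859817 on the plus strand.
Galnt7: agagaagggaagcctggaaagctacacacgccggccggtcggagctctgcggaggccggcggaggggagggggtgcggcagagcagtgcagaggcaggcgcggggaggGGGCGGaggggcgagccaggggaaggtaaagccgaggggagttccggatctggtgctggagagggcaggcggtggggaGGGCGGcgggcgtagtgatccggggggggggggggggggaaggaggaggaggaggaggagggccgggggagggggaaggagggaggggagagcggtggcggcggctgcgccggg
B3gnt2: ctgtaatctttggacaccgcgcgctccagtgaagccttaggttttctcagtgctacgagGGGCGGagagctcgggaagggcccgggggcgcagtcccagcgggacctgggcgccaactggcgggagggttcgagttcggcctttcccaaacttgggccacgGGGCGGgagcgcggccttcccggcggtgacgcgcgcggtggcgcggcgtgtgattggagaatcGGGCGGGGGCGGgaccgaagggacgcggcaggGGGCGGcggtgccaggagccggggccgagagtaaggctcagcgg
St3gal4: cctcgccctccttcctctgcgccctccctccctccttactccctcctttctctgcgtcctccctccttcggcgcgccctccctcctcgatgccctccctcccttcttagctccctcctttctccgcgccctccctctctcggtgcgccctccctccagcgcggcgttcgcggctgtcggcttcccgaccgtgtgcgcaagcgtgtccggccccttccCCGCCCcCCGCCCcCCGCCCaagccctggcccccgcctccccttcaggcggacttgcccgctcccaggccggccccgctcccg
Gcnt2: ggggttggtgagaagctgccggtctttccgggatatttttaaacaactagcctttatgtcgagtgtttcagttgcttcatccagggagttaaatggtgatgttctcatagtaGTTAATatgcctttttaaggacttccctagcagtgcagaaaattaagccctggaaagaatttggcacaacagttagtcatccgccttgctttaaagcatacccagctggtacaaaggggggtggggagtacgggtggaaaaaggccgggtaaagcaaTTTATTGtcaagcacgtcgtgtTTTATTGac
The first 3, of genes called lower in tumor crypts, held 2, 5 and 3 GC boxes. They were 75%, 71.3% and 74% G or C, against a median of 52.7% over all 32851 windows. The other windows of genes called lower varied more, at 70% (St3gal3), 66% (Galnt10), 65.7% (St6galnac4) and 64.7% and 38.7% (St3gal6). Those of St6gal1 were 48%, 50.7% and 49.7%, and that of St6galnac6 was 52%. The Gcnt2 window shown, of a gene called higher, was 44.7% G or C and held 2 CDX-type matches and 1 HNF1-type match but no GC box. The second Gcnt2 window was 52.3% G or C with no match, and the third 58% with 1 GC box and no other match, so the 3 starts of this gene differ among themselves. The GC box was in 7 of 12 windows of the 9 genes called lower (58.3%), in 32 of 60 windows of all members (53.3%) and in 35.7% of all windows. The TCF/LEF core, the CDX-type motif and the HNF1-type motif were in none of those 12 windows and in 3.73%, 10.9% and 7.10% of all windows. A match describes letters in a window and shows no bound factor.

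Core 1 synthesis showed no call. C1galt1, the core 1 synthase, had 765 and 877 in tumor crypts, 965 and 909 in DSS crypts and 1084 and 967 in control crypts, a change of -0.32 ± 0.17 against control crypts (adjusted p = 0.209). C1galt1c1, also called Cosmc, is the chaperone that C1galt1 needs to fold. It had 2893 and 1889 in tumor crypts, 3458 and 3125 in DSS crypts and 3244 and 3914 in control crypts. The tumor arrays were lowest for both genes, but the chaperone's change of -0.60 ± 0.22 missed the threshold (adjusted p = 0.0848), and its dimmer probe set gave 0.09.

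The branching enzymes were called in opposite directions against DSS crypts. Gcnt2, which makes the I branches of long lactosamine chains, had 371 and 599.5 in tumor crypts, 158 and 232 in DSS crypts and 213 and 249 in control crypts. Both tumor arrays lay above the others, and the log2 change was 0.98 ± 0.28 against control crypts (adjusted p = 0.0375) and 1.23 ± 0.28 against DSS crypts (adjusted p = 0.0143). The rise against control crypts was called in 13 of 17 alternatives; it was lost without the filter, without either control array, and without tumor replicate 2, where the change was 0.65. The call against DSS crypts was lost without DSS replicate 1 (adjusted p = 0.0981) or tumor replicate 2 (adjusted p = 0.0790). The gene has 7 probe sets and only the one tested was bright; the dimmer ones gave -0.17 to 0.81.

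Gcnt3, the mucin-type enzyme of the gut that makes core 2 and core 4 branches, had 185 and 68 in tumor crypts, 384 and 241 in DSS crypts and 320.1 and 263 in control crypts. Both tumor arrays lay below the others but differed widely from each other. The change was -1.29 ± 0.40 against DSS crypts (adjusted p = 0.046), called in 9 of 17 alternatives and lost on leaving out any array but tumor replicate 1, and -1.22 ± 0.40 against control crypts, where it was no call (adjusted p = 0.0612). Without tumor replicate 2 the change against DSS crypts was -0.67. Gcnt1, the widely expressed core 2 enzyme, stayed below the filter with 26 and 39.2 in tumor crypts, 65.6 and 77.4 in DSS crypts and 73.6 and 105 in control crypts; tumor arrays were lowest here too, and the unfiltered fit gave -1.08 against control crypts (adjusted p = 0.0679).

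Among the extending enzymes the clearest fall was that of B3gnt2, the main enzyme of the repeated lactosamine units that later steps cap. It had 688 and 719 in tumor crypts, 1390.2 and 1471 in DSS crypts and 1397 and 1694 in control crypts, so that every tumor array lay well below every other array. The change was -1.11 ± 0.17 against control crypts (adjusted p = 0.00295) and -1.01 ± 0.17 against DSS crypts (adjusted p = 0.00399), and its second probe set gave -0.71 against control crypts. B3gnt3, which extends core 1, had 231 and 272 in tumor, 259 and 215 in DSS and 339.7 and 229.6 in control crypts, with overlapping groups. B3gnt5, which starts the lacto-series of glycolipids, differed by -0.19 ± 0.19 against control crypts with no call. B3gnt8, another enzyme of lactosamine repeats, was dim on all arrays, with 37.9 and 35.7 in tumor crypts, 30.9 and 24.4 in DSS crypts and 9.95 and 4.67 in control crypts; it was the 1 untested member called when the filter was removed, with 1.13 against control crypts (adjusted p = 0.0331).

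B4galt6, a lactosylceramide synthase of the glycolipid pathway and not a mucin enzyme, was the member with the largest rise. It had 1127 and 1529 in tumor crypts, 519.8 and 513 in DSS crypts and 649 and 506 in control crypts, with both tumor arrays above all others. The log2 change was 1.17 ± 0.21 against control crypts, 2.25-fold on that scale (adjusted p = 0.00581), and 1.32 ± 0.21 against DSS crypts (adjusted p = 0.00305). All 4 of its probe sets lay above 0 against control crypts, from 0.72 to 1.17. B4galt1, the main galactosyltransferase of lactosamine, had 1326 and 1876 in tumor, 1327 and 1198 in DSS and 1161 and 1262 in control crypts, and its change of 0.38 ± 0.20 against control crypts was no call. B4galt3 at 0.55, B4galt4 at -0.58 and the proteoglycan enzyme B4galt7 at 0.32 were not called either. Of 5 B3galt genes 2 were tested and none was called; B3galt5, which makes the type 1 chains of the gut, stayed below the filter with 57.6 and 46.6 in tumor, 94.4 and 43.3 in DSS and 76.1 and 49.9 in control crypts, in overlapping groups.

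Fucosylation was thinly covered, with 1 of 7 Fut genes above the filter. This was Fut8, which adds the core fucose of N-linked chains and does not act on mucin-type chains. It had 1719 and 1501 in tumor crypts, 2622 and 2559 in DSS crypts and 2126 and 2313 in control crypts, again with the tumor arrays lowest. The change was -0.68 ± 0.16 against DSS crypts (adjusted p = 0.0147), lost without either DSS array or tumor replicate 2, and -0.46 ± 0.16 against control crypts, which missed the threshold (adjusted p = 0.0683). Fut2, the secretor enzyme that adds terminal fucose to gut mucins, read 36.1 and 38.8 in tumor, 39.7 and 55.9 in DSS and 36.8 and 26.6 in control crypts, and Fut4, of Lewis x, read 19.8 and 3.31 in tumor, 29.4 and 28 in DSS and 43.2 and 26.6 in control crypts. Both lay below the array medians, where no change could be measured well.

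The sialyltransferases that link sialic acid to galactose carried the largest called falls. St3gal4, which caps lactosamine chains with alpha-2,3-linked sialic acid and takes part in selectin ligands, had 216 and 256 in tumor crypts, 1642 and 1379 in DSS crypts and 2406 and 1587 in control crypts. The tumor arrays lay far below all others, with a log2 change of -2.96 ± 0.23 against control crypts, 7.79-fold lower on that scale (adjusted p = 0.000153), and -2.59 ± 0.23 against DSS crypts (adjusted p = 0.000237). Over 18 alternatives the change against control crypts ran from -3.26 to -2.59 and was called in every one. This is the gene whose window above holds 3 GC boxes in a row.

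St6gal1, which caps lactosamine on N-linked chains with alpha-2,6-linked sialic acid, had 885 and 756 in tumor crypts, 3761 and 3299 in DSS crypts and 2874 and 2198 in control crypts. It changed by -1.60 ± 0.19 against control crypts, 3.03-fold lower (adjusted p = 0.000928), and by -2.08 ± 0.19 against DSS crypts (adjusted p = 0.00027); its dimmer probe set gave -0.69 against control crypts. The DSS arrays were the highest for this gene, above both control arrays. St3gal6, another enzyme of lactosamine ends, had 1865 and 1485 in tumor crypts, 4724 and 3899.6 in DSS crypts and 3992 and 4338 in control crypts. Its changes were -1.31 ± 0.18 against control crypts (adjusted p = 0.00182) and -1.36 ± 0.18 against DSS crypts (adjusted p = 0.00139), with DSS and control arrays in 1 range.

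St3gal3, which acts on type 1 and type 2 lactosamine, fell less. It had 303 and 266 in tumor crypts, 451 and 468 in DSS crypts and 517 and 456 in control crypts, and changed by -0.74 ± 0.18 against control crypts (adjusted p = 0.0199); the call was lost without either control array or tumor replicate 2. Against DSS crypts it changed by -0.66 ± 0.18 (adjusted p = 0.027), a call lost without either DSS array or tumor replicate 2. St3gal1, the enzyme that caps core 1 itself, was below the filter at 34 and 37.6 in tumor crypts, 11 and 20.6 in DSS crypts and 13.7 and 15.2 in control crypts; its tumor arrays were the highest, with an unfiltered change of 0.73 ± 0.26 that was no call (adjusted p = 0.122). The fall was thus measured in the 3 St3gal genes of lactosamine ends that were bright enough, and St3gal1, St3gal2 and St3gal5 gave no test.

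Of 6 St6galnac genes, which mostly attach sialic acid to N-acetylgalactosamine, 4 were tested and 2 were called lower. St6galnac4, which makes disialyl core 1, had 103 and 137 in tumor crypts, 199.8 and 296 in DSS crypts and 323 and 269 in control crypts, a change of -1.20 ± 0.25 against control crypts (adjusted p = 0.0129). St6galnac6, known for gangliosides and for disialyl Lewis a in human colon, had 3044 and 2840.3 in tumor crypts, 5447 and 4641 in DSS crypts and 5192 and 4345 in control crypts, a change of -0.69 ± 0.16 (adjusted p = 0.0203). In both genes every tumor array lay below every other array, and against DSS crypts they changed by -0.94 and -0.77. Without control replicate 1 both calls against control crypts were lost, at -1.07 and -0.56, and that of St6galnac6 also without tumor replicate 2, at -0.64. Against DSS crypts St6galnac4 lost its call without the filter, without DSS replicate 2 (adjusted p = 0.197) and without tumor replicate 1 (adjusted p = 0.104). St6galnac6 lost its call there without DSS replicate 1 (adjusted p = 0.102) and without tumor replicate 2 (adjusted p = 0.0547). St6galnac2, another core 1 enzyme, had 317 and 441 in tumor, 363 and 486 in DSS and 419 and 478 in control crypts, in overlapping groups. St8sia5, a ganglioside sialyltransferase, was dim, with 42.6 and 46.5 in tumor crypts, 105 and 110.2 in DSS crypts and 73.6 and 84.9 in control crypts. It was called against DSS crypts alone (-1.01 ± 0.29, adjusted p = 0.034). This call was lost without either tumor array or control replicate 2, and in a fit of the 2 groups alone (adjusted p = 0.0503). Because only the DSS arrays lay above the median, the gene was not tested when DSS replicate 1 or 2 was left out.

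St6galnac1, the enzyme of the sialyl-Tn antigen and a gene of goblet cells, could not be read by group. It had 13.8 and 4.59 in tumor crypts, 315 and 6 in DSS crypts and 347 and 16.8 in control crypts, so that it was bright only on replicate 1 of the DSS and control groups. The fitted change of -2.08 ± 1.31 against control crypts was no call (adjusted p = 0.289). Retnlb, a goblet cell product chosen here after its values were seen, also split by replicate number, with 2881 and 834 in tumor crypts, 4655 and 141 in DSS crypts and 11923 and 323 in control crypts. In DSS and control crypts no other tested marker of the goblet cell list split as widely. Clca1 had 12656 and 11693 in DSS crypts and 12342 and 11543 in control crypts. Spink4 was higher on replicate 1 of each group but by less, and in tumor crypts Clca1 and Fcgbp were higher on replicate 2. The same arrays, replicate 1 of DSS and of control, had the highest mean of 27 poly-A control probe sets, 1168 and 777, where the other 4 arrays had 312 to 394; the part of this in the result was not tested.

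**Figure D3:**
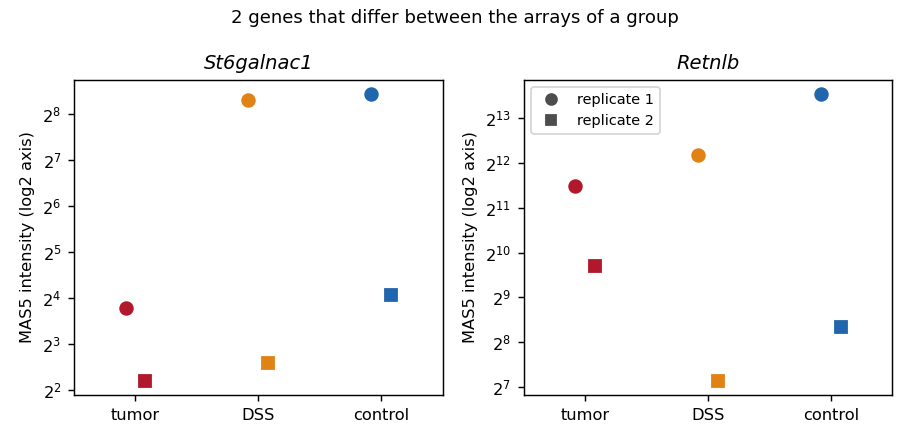
MAS5 intensity (log2 axis) of St6galnac1 (left) and Retnlb (right) by group, with 1 point per array; circles are replicate 1 and squares replicate 2. St6galnac1 is above 300 on DSS replicate 1 and control replicate 1 and below 20 on the other 4 arrays, and Retnlb is higher in replicate 1 of each group. Retnlb was picked after its values were seen, and no other tested goblet cell marker split as widely in DSS and control crypts.

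After 2 days of DSS no member passed the threshold. By limma, 1 of the 31 tested members and 189 of all 7456 genes had an unadjusted p under 0.05, and 0 genes were called. The member was St6gal1, with 3761 and 3299 in DSS crypts and 2874 and 2198 in control crypts, a change of 0.48 ± 0.19. Galnt10 at 0.35 ± 0.19 and Fut8 at 0.22 ± 0.16 had the next smallest p among positive changes. St3gal4 at -0.37 ± 0.23, St6galnac4 at -0.26 ± 0.25 and B3gnt3 at -0.23 ± 0.24 had the smallest p among negative ones. All 31 changes lay between -0.37 and 0.48, with a median of -0.01. With 2 arrays a group, a miss does not show that DSS and control crypts had equal levels.

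Genes that supply activated sugars were also called lower in tumor crypts. Of 32 listed symbols for nucleotide sugar synthesis and Golgi transport 21 were tested. Of these, 8 were called lower and 1 higher than in control crypts, with a median of -0.40, and 9 lower and 1 higher than in DSS crypts. The shares over all genes were 9.74% lower and 12.8% higher against control crypts, and 11.3% and 14.8% against DSS crypts. Slc35a1, which carries CMP-sialic acid into the Golgi, had 2172 and 1841 in tumor crypts, 4280.3 and 3773 in DSS crypts and 4099 and 3793 in control crypts, a change of -0.97 ± 0.16 against control crypts (adjusted p = 0.00448). Slc35a3, the UDP-N-acetylglucosamine transporter, changed by -1.14 ± 0.20 (adjusted p = 0.00544) and Ugp2, which makes UDP-glucose, by -0.80 ± 0.14 (adjusted p = 0.00557). In all 3 genes both tumor arrays lay below the other 4. Cmas, which activates sialic acid, had 5795 and 5069.6 in tumor, 6857 and 5203 in DSS and 6556 and 5575 in control crypts and was no call. The 1 gene called higher was Npl, which breaks sialic acid down: it had 179 and 352 in tumor crypts, 8.15 and 34.4 in DSS crypts and 3.29 and 17.7 in control crypts (3.30 ± 0.51, adjusted p = 0.00338). Its DSS and control values lay below the array medians, so its passing of the filter was tied to the tumor arrays.

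**Figure D4:**
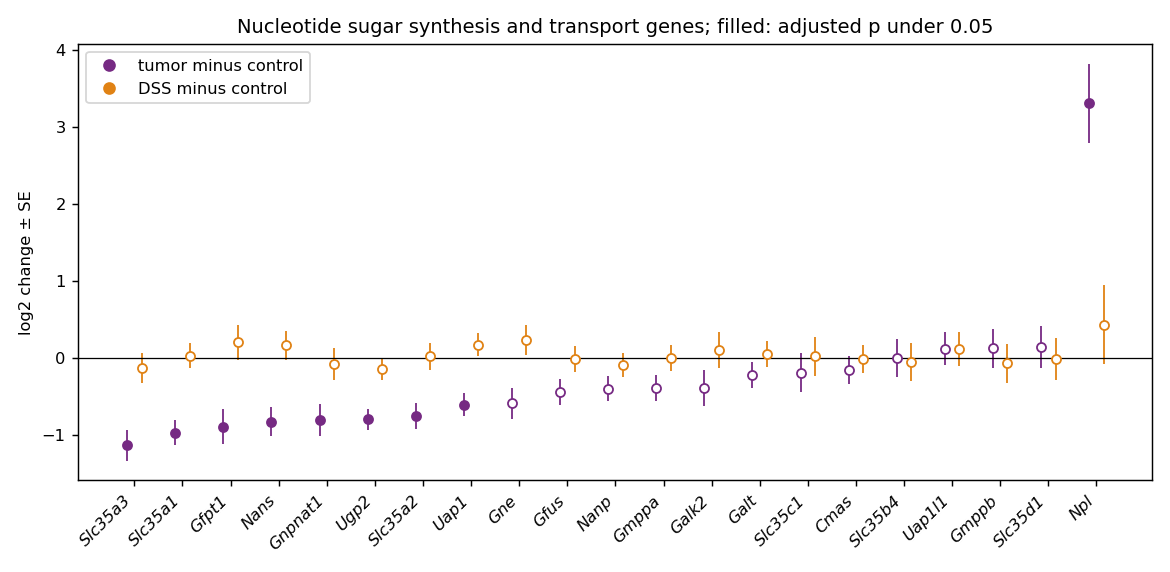
Log2 change ± SE of the 21 tested genes of nucleotide sugar synthesis and transport, in tumor minus control (purple) and DSS minus control (orange), ordered by the first; filled points have an adjusted p under 0.05. On the left 8 genes from Slc35a3 to Uap1 lie below 0 in tumor crypts while their DSS points stay near 0. Npl, which passed the filter through its tumor arrays alone, lies at 3.30.

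Goblet cell product genes had lower calls too, while 1 of the 3 mucins tested was called lower. The listed mucin Muc2 had no probe set of its own and was not analysed here. Muc4, Muc5ac, Muc5b, Muc15 and Muc20 stayed below the filter. Of 28 listed symbols 16 were tested; 10 were called lower and none higher in tumor than in control crypts, with a median of -0.94, and 11 lower and 1 higher than in DSS crypts. Among the 3 tested mucins, all membrane mucins, Muc3 changed by -1.30 ± 0.39 against control crypts (adjusted p = 0.0472) and Muc13 differed by -0.10 ± 0.15 with no call. The tumor arrays of Muc3 differed widely from each other, at 2711 and 7553, where control crypts had 11638 and 10783. Muc1 had 190.5 and 324 in tumor crypts, 9.66 and 111 in DSS crypts and 49.1 and 74 in control crypts. It was the gene called higher against DSS crypts (2.17 ± 0.65, adjusted p = 0.0403) and was no call against control crypts (1.77, adjusted p = 0.0851). Of the DSS and control arrays only DSS replicate 2 lay above its median for Muc1, so its passing of the filter was tied to the tumor arrays. Clca1, a protease of the mucus layer, changed by -3.54 ± 0.23 (adjusted p = 9.17e-05), and Atoh1, the transcription factor of the secretory lineage, by -1.67 ± 0.22 (adjusted p = 0.00163). Among other capping and modifying enzymes, 4 of 9 tested were called lower and none higher. Casd1, which acetylates sialic acid, changed by -1.04 ± 0.18 (adjusted p = 0.00568) and the sulfotransferase Chst4 by -1.26 ± 0.28 (adjusted p = 0.0157). Abo and Siae, also called lower, read 50.8 and 50.7 and 97.4 and 75.6 in tumor crypts, below the array medians of 112 and 131. Their passing of the filter was tied to the DSS and control arrays, where they were brighter. N-glycan branching and glycan-degrading enzymes each had 2 of 8 tested called lower than in control crypts and none higher, with medians of -0.18 and -0.15. Against DSS crypts they had 1 and 0 called lower, and the capping and modifying enzymes 5 of 9, with none higher. Those 5 include Abo, Siae and A4galt, and A4galt was above the array median on the DSS arrays alone, so its passing was tied to them. Over all genes, 9.74% were called lower than in control crypts and 11.3% lower than in DSS crypts.

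Markers of cell types moved along with these genes. Of the goblet cell list, which shares Clca1 and others with the list above, 5 of 8 tested markers were called lower in tumor than in control crypts, and their summed intensity was 54092 and 38315 in tumor crypts, 90300 and 77127 in DSS crypts and 85617 and 76226 in control crypts. Of the mature colonocyte list 8 of 12 were called lower, and of the enteroendocrine list 6 of 7. Over all genes, 9.74% were called lower and 12.8% higher than in control crypts. The pan-epithelial sum was 76361 and 73676 in tumor crypts, 88822 and 77824 in DSS crypts and 79368 and 72839 in control crypts, with 0 of 9 markers called lower and 1 higher. Neutrophil markers had 2 of 2 tested called higher, with sums of 1032 and 11350 in tumor crypts and 63.0 and 111 in control crypts. Those 2, S100a8 and S100a9, read 0.68 to 20.6 on the DSS and control arrays, so their passing of the filter was tied to the tumor arrays. Of the 5 neutrophil markers on the array, 3 lay below the median on all arrays. Myeloid markers had 2 of 5 tested called higher, with sums of 5327 and 10372 in tumor crypts and 2123 and 2503 in control crypts. The sums of the myeloid, neutrophil, lymphocyte, fibroblast, smooth muscle and endothelial lists were higher on replicate 2 than on replicate 1 in each of the 3 groups, with smooth muscle at 374 and 1209 in tumor crypts, 1278 and 3605 in DSS crypts and 725 and 3766 in control crypts. The part of these cells in the glycosyltransferase values was not tested, and in bulk crypts fewer cells of a type and less RNA per cell cannot be told apart. RNA quality, read as the 3' to 5' ratio of actin signals on the log2 scale, also differed: the ratio was 0.95 and 1.04 in tumor crypts, below the 1.20 to 1.63 of the DSS and control arrays, and its part was not tested either.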

How the data were processed

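The authors deposited 1 linear intensity for each probe set and array, made with MAS5 per the submitters' processing notes; its version is not given in the sources used here. Biotinylated cRNA was hybridised to 1 array per pool, per the labels. Of 22690 probe sets, 64 controls were left out; 20380 carried 1 gene symbol in the platform annotation of 2016, 691 several and 1555 none. The pseudocount of 17.8 is the 25th percentile of all values. The 6 arrays were fitted as 3 group means by limma (version 3.58.1, under R 4.3.3) and its empirical Bayes step with a trend on intensity, with 2-sided tests and Benjamini-Hochberg adjustment over 7456 genes at 0.05. The members, their classes and the other gene lists were chosen with earlier results of these data known.

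Members given in full were the called ones, the 3 of smallest p per direction in DSS minus control, and a fixed set: C1galt1, C1galt1c1, Galnt3, Galnt7, Gcnt1, Gcnt3, B3gnt3, B3galt5, B4galt1, Fut2, Fut4, Fut8, St3gal1, St3gal3, St3gal4, St3gal6, St6gal1, St6galnac2 and St6galnac6. Of other lists, up to 3 called genes of smallest p per direction were eligible. Members outside that rule (Galnt1, Galnt2, Galnt4, Galnt11, B3gnt5, B3gnt8, B4galt3, B4galt4, B4galt7, St6galnac1) and Cmas, Retnlb, Muc1, Muc3 and Muc13 were named after their values were seen. The code was tested on simulated data. Plots came from matplotlib 3.10.9 under Python 3.11.15.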

Additional observations from a re-analysis of the deposited data

How the results depend on the processing

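Alternatives were quantile normalization, median centring, a pseudocount of 1 or at the median, no filter, a filter at the 75th percentile, the mean of probe sets, each probe set, no intensity trend, a fit of the 2 groups alone, a replicate block, and fits that drop 1 array at a time. Members called higher in tumor minus control were 2, with 1 under the 75th percentile filter and 1 to 3 with an array left out; those called lower were 9, with 14 under median centring and 5 to 11 with an array left out. In tumor minus DSS, 3 were called higher, with 1 to 3 with an array left out, and 12 lower, with 7 under the 75th percentile filter, where 15 members were tested, and 6 to 11 with an array left out. No member was called in DSS minus control under any alternative. Over all genes, the 75th percentile filter called 12.5% higher in tumor minus control and 16.0% lower in tumor minus DSS. The replicate block gave 2 higher and 10 lower in tumor minus control, 4 higher and 12 lower in tumor minus DSS and 0 in DSS minus control. Over all genes it called 14.7% higher and 11.3% lower in tumor minus control, and 16.7% and 12.9% in tumor minus DSS. With 2 groups only the block gave 2 and 10, 4 and 14, and 0 members. That fit called 12.9% and 9.05%, then 21.9% and 17.5%, of all genes, and 124 genes in DSS minus control. Replicate 1 minus 2 differences correlated at 0.48 between DSS and control, 0.13 between tumor and control and 0.47 between tumor and DSS, but the labels tie no number to a shared day or litter and 2 numbers cannot settle a pairing, so the numbers were not used as pairs. Median centring also moved the split of all calls in tumor minus DSS to 35.7% higher and 64.3% lower, where it was 56.8% and 43.2%. In DSS minus control, with an array left out, St6galnac4 ran from -0.52 to 0.00326 and B3gnt3 from -0.50 to 0.0344; the cause was not tested. Galnt10 lost its call against control crypts also without the filter, with the mean of probe sets and with 2 groups only, and Gcnt2 without the filter. Dim probe sets, which include 28 members, limit what can be read.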

Other observations

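Chst4, a sulfotransferase known from the selectin ligands of lymph node vessels, had 172 and 168 in tumor crypts, 292 and 271 in DSS crypts and 594 and 314 in control crypts. Control replicate 1 stood above all other arrays for this gene, and both tumor arrays stood below. Abo, the blood group transferase, was dim but separate between the same groups, with 50.8 and 50.7 in tumor crypts, 99 and 133 in DSS crypts and 115 and 138 in control crypts, a log2 change of -1.07 ± 0.28 against control crypts by limma (adjusted p = 0.0286). Its tumor values lay below the array medians, so its passing of the filter was tied to the DSS and control arrays. Man1a, which trims mannose early in N-linked chains, had 501 and 554 in tumor crypts, 1125 and 988 in DSS crypts and 919 and 1019 in control crypts, a change of -0.86 ± 0.17 (adjusted p = 0.0093). Neu1, the lysosomal sialidase, had 399 and 455 in tumor crypts, 656 and 681 in DSS crypts and 579 and 804 in control crypts, a change of -0.66 ± 0.20 (adjusted p = 0.0484). In these 3 genes both tumor arrays lay below both control arrays and both DSS arrays.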
